A study of Homo sapiens with 6 samples.

Results

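The genes described here encode the 5 subunits of the transcription factor NF-kB (NFKB1, NFKB2, RELA, RELB and REL), 3 of its IkB inhibitors (NFKBIA, NFKBIB and NFKBIE) and 2 feedback genes (TNFAIP3 and BIRC3). They were taken by symbol, and 10 of 10 were found among the 23284 symbols listed for each library. Expression was measured by bulk RNA sequencing in 6 libraries of HEC-1B cells, an established line of human endometrioid carcinoma, as FPKM (fragment counts divided by transcript length in kilobases and by the library's mapped total, so that levels of different genes can be set side by side). The first group of 2 libraries carries the labels "high ALDH potential" and "ALDH-high accel" (high-potential accelerated). The second, with the label "ALDH-high accel" alone, is called parental accelerated here, and the third, labelled "ALDH-high to low", is called parental high-to-low; "parental" is shorthand for HEC-1B without the high-potential label and stands in no label. Aldehyde dehydrogenase (ALDH) marks stem-like cancer cells, and the design text asks about faster passage from an ALDH1A1-low to an ALDH1A1-high state, seen by cell sorting. No agent, transgene or clone is named for any group, and all 3 groups share the line HEC-1B. How the high-potential cells were obtained, and whether the 2 replicates of a group were separate cultures, is not given in the sources used here, so a p-value reflects only how far these libraries differ, and that spread may be technical.

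NF-kB works as dimers of its 5 subunits. RELA, RELB and REL carry domains that activate transcription, while NFKB1 and NFKB2 encode precursors (p105 and p100) that are processed to the DNA-binding subunits p50 and p52. In resting cells IkB proteins hold the dimers in the cytoplasm. In the canonical arm, signals such as TNF or interleukin 1 activate the IkB kinase, the inhibitors are degraded and RELA dimers enter the nucleus; in the slower non-canonical arm, the kinase NIK (MAP3K14) leads to processing of p100 and release of RELB dimers. Several of these genes are themselves NF-kB targets, which gives the pathway negative feedback through NFKBIA, NFKBIE and TNFAIP3. The mRNA levels measured here say nothing of protein, processing or nuclear location.

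NF-kB binds kB sites, and the stretches below show where letters of the kB consensus stand just before the starts of these genes, so that they can be set beside the members' values. The RefSeq promoter table (GRCh38.p14) held 13 start windows for 8 of the 10 members, and RELB and NFKBIE had none. The 250 bases before each start were searched on both strands for the kB consensus, 10 bases long, and overlapping matches were joined into 1. All 12 matches are shown in 10 stretches, in capitals with up to 10 bases on each side, and read 5′ to 3′ along the gene's strand.
NFKBIA (chr14:35404811-35404840, minus strand, match 81 to 72 bases before the start): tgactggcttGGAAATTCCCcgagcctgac
BIRC3 (chr11:102317275-102317304, plus strand, 199 to 190 bases before): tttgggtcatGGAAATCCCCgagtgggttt
BIRC3 (chr11:102317339-102317368, plus strand, 135 to 126 bases before): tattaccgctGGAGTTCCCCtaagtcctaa
NFKB2 (chr10:102394461-102394519, plus strand, 107 to 97 and 78 to 69 bases before a start): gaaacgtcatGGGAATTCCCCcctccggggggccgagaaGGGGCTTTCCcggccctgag
NFKB2 (chr10:102395519-102395548, plus strand, 176 to 167 bases before another start): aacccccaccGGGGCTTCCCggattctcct
NFKB2 (chr10:102395674-102395703, plus strand, 21 to 12 bases before the same other start): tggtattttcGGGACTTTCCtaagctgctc
TNFAIP3 (chr6:137867182-137867223, plus strand, 67 to 58 and 55 to 46 bases before): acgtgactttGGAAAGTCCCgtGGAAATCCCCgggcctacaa
NFKB1 (chr4:102501300-102501329, plus strand, 49 to 40 bases before): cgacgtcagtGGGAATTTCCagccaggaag
REL (chr2:60881517-60881547, plus strand, 47 to 37 bases before): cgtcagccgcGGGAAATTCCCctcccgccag
NFKBIB (chr19:38899931-38899961, plus strand, 28 to 18 bases before): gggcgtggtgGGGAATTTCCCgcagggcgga

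At least 1 window held a match in 7 of the 8 members with a window, all but RELA, against 15.8% of the 8541 tested genes that had a window. By window the share was 8 of 13 for the members, 12.05% of the 12524 windows of tested genes and 9.96% of all 35116 windows. Among the 8 members with a window, matches stood before those with the greatest differences between high-potential and parental cells (NFKBIA, BIRC3, NFKB2) and before genes whose levels lay close together in all 6 libraries (NFKB1, REL, NFKBIB). A match is a run of letters, not a shown binding site. The 250 bases before the NFKBIA start (chr14:35404750-35404999, minus strand) are given whole because NFKBIA had the highest level and the greatest range of the members, with the 1 match in capitals.
NFKBIA: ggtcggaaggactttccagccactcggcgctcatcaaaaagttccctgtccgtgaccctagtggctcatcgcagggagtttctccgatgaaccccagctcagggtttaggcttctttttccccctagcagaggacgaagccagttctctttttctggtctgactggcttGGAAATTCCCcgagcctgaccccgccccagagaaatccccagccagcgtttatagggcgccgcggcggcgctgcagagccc

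As a check of the labels, ALDH1A1 was 352.5 and 303.6 FPKM in the high-potential pair, 26.7 and 316.9 in the parental accelerated pair and 28.4 and 9.45 in the high-to-low pair. Parental accelerated replicate 1 thus lay inside the high-to-low range of the sorted marker, against its label, and the comparisons of high-potential with parental cells are given without it as well. Of 6 epithelial markers 5 reached 1 FPKM, led by KRT18 at up to 464.4 FPKM. CDH1 did not, at 0 to 0.0868 FPKM over the 6 libraries. The 6 markers together summed to 546.1 to 632.3 FPKM in the high-potential pair, 619.7 to 735.0 in the parental accelerated pair and 662.9 to 667.7 in the high-to-low pair. KRT8, at 49.4 and 47.1 against 90.6 to 107.7 FPKM, and EPCAM, at 3.49 and 2.16 against 4.44 to 10.6, were lower in both high-potential libraries than in all 4 parental libraries, and their part in the results was not tested. The 8 leukocyte markers summed to at most 2.56 FPKM in any library, with CD3E and MS4A1 at 0 throughout. The 5 endothelial markers summed to at most 1.02 and the 6 fibroblast markers to at most 0.603 FPKM, with PECAM1, COL3A1 and DCN at 0 throughout. Depth relative to high-potential replicate 1, recovered from low values, was 0.807 to 1.07. At that depth the lowest value among the members, TNFAIP3 in high-to-low replicate 2, rests on about 28 fragments. The highest, NFKBIA in high-potential replicate 2, rests on about 2375. These counts take the worth of 1 fragment from high-potential replicate 1, scaled by depth. Estimated from high-to-low replicate 2 itself that worth was higher (0.210 against 0.0981 FPKM times kilobases), which would give fewer fragments there. In all, 10 of 10 members passed the filter of at least 1 FPKM in at least 2 libraries, and 12135 genes were tested with limma on log2(FPKM + 1).

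NFKBIA, NFKBIE and BIRC3 (3 of 10) rose in high-potential cells against the mean of the parental groups at a Benjamini-Hochberg adjusted p under 0.05 (limma), where 0.931% of all tested genes were called higher. Another pair, NFKB2 and RELB, were at adjusted p = 0.0509 and 0.0555. With a term for the replicate number in the limma fit (replicate block) all 5 passed (adjusted p = 0.0231 for NFKB2, 0.021 for RELB, 0.0195 for NFKBIA and BIRC3 and 0.00799 for NFKBIE), though no label says that the numbers pair libraries. That fit called 470 of the 12135 tested genes higher, where the fit without the term called 113. Without the term the same 5 of 10 members had an unadjusted p under 0.05 and a positive difference, as 8.11% of all tested genes did. Both high-potential libraries lay above all 4 parental libraries for 6 of 10 members (NFKB2, RELB, NFKBIA, NFKBIE, TNFAIP3 and BIRC3), a separation that 15.3% of tested genes show in that direction. The median log2 difference of the 10 was 0.99, beside 0.00095 over all tested genes, and 10 of 10 were positive where 50.1% of all genes were. Without parental accelerated replicate 1, 7 of 10 members lay above the other 3 parental libraries (17.2% of all genes).

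**Figure D1:**
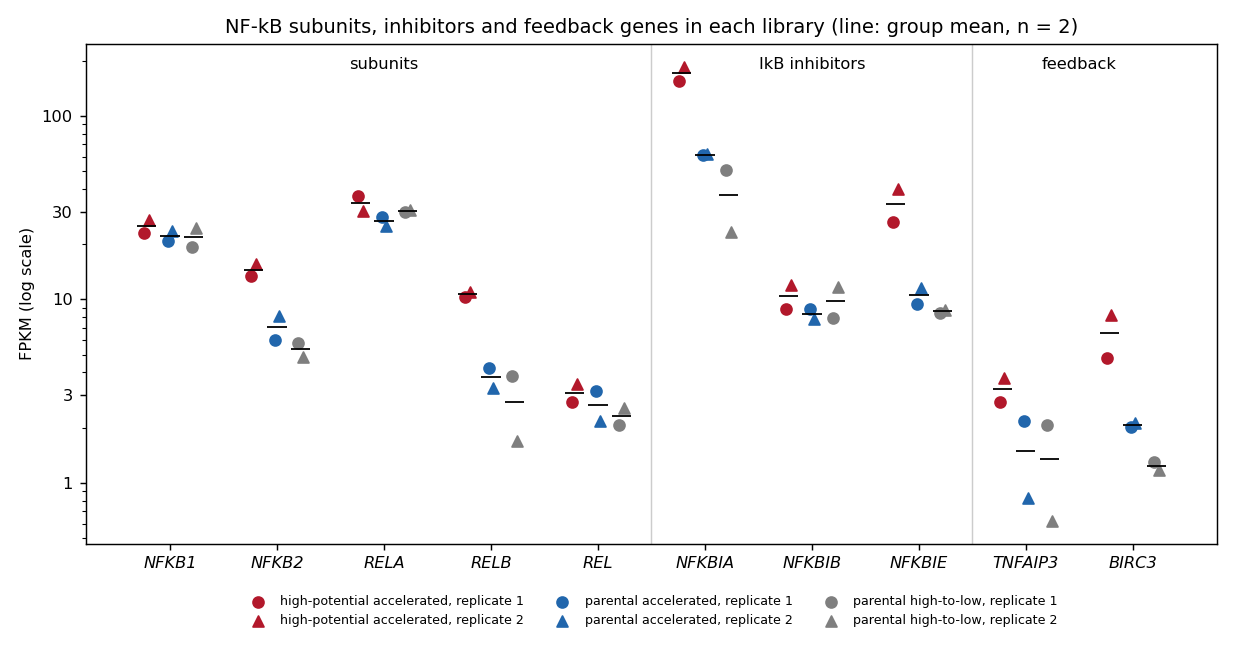
FPKM (log axis) of each of the 10 genes in each library, with circles for replicate 1, triangles for replicate 2 and a line at the mean of each group of 2. NFKB2, RELB, NFKBIA, NFKBIE, TNFAIP3 and BIRC3 have both high-potential points above all 4 parental points, while NFKB1, RELA, REL and NFKBIB overlap.

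Among the subunits, RELA was the most abundant in 6 of 6 libraries and NFKB1 came next. RELA, the main activating subunit of the canonical arm, was 36.6 and 30.4 FPKM in the high-potential pair, 28.2 and 25.0 in the parental accelerated pair and 29.97 and 30.6 in the high-to-low pair. Its groups overlapped, and its values spanned 1.46-fold in all. The log2 difference of high-potential from parental cells was 0.23 (SE 0.162, 95% interval -0.17 to 0.62, limma adjusted p = 0.496). NFKB1, the precursor of p50, was 23.1 and 27.0 FPKM in the high-potential pair, 20.7 and 23.7 in the parental accelerated pair and 19.4 and 24.6 in the high-to-low pair. Here replicate 2 stood above replicate 1 in each group, and the span was 1.39-fold. Its difference was 0.17 (SE 0.181, 95% interval -0.26 to 0.61, limma adjusted p = 0.644).

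REL, the c-Rel subunit best known from lymphocytes, was the least abundant subunit in 5 of 6 libraries, the exception being high-to-low replicate 2, where RELB was lower. Its level was 2.74 and 3.45 FPKM in the high-potential pair, 3.16 and 2.18 in the parental accelerated pair and 2.06 and 2.57 in the high-to-low pair, so the groups overlapped. The difference was 0.24 (95% interval -0.30 to 0.77, limma adjusted p = 0.606). For RELA, NFKB1 and REL the intervals leave room for a difference of up to 0.62, 0.61 and 0.77 on the log2 scale, so these values do not show that the levels were equal.

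The subunits of the non-canonical arm differed more. NFKB2, whose p100 product is both a precursor and an inhibitor, was 13.4 and 15.5 FPKM in the high-potential pair, 5.99 and 8.11 in the parental accelerated pair and 5.82 and 4.87 in the high-to-low pair. The lower high-potential library was 1.66 times the highest parental library. The log2 difference from the parental mean was 1.12 (SE 0.2, limma adjusted p = 0.0509), which does not pass. RELB, the partner of p52, was 10.3 and 11.0 FPKM in the high-potential pair, 4.25 and 3.29 in the parental accelerated pair and 3.85 and 1.69 in the high-to-low pair. The lower high-potential library was 2.42 times the highest parental library, and high-to-low replicate 2 stood below the rest. Its difference was 1.49 (SE 0.279, limma adjusted p = 0.0555), which does not pass either. NFKB2 and RELB both passed with the limma prior estimated robustly (adjusted p = 0.0419 and 0.0453), with a pseudocount of 5 (0.0488 and 0.0418) and with the replicate block; NFKB2 also passed without small RNA genes (0.0437) and without a variance trend (0.049), and RELB with quantile normalization (0.039). The RELB difference was 0.93 with a pseudocount of 5. Over all alternatives the adjusted p was 0.0231 to 0.334 for NFKB2 and 0.021 to 0.342 for RELB.

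The make-up of the subunit pool restates the same values as shares within each library. NFKB2 and RELB together made up 27.5 and 30.4% of the summed FPKM of the 5 subunits in the high-potential pair, 16.4 and 18.3% in the parental accelerated pair and 15.8 and 10.2% in the high-to-low pair. The sum itself came to 86.2 and 87.4 FPKM in the high-potential libraries and to 61.1 to 64.4 FPKM in the 4 parental libraries. NFKB2 stood at 0.582 and 0.574 times the level of NFKB1 in the high-potential libraries and at 0.198 to 0.342 times in the parental libraries. RELB stood at 0.281 and 0.362 times the level of RELA in the high-potential and at 0.0553 to 0.151 times in the parental libraries. These are ratios of levels per length within a library, so the scaling of the library cancels, and they are given without a test.

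**Figure D2:**
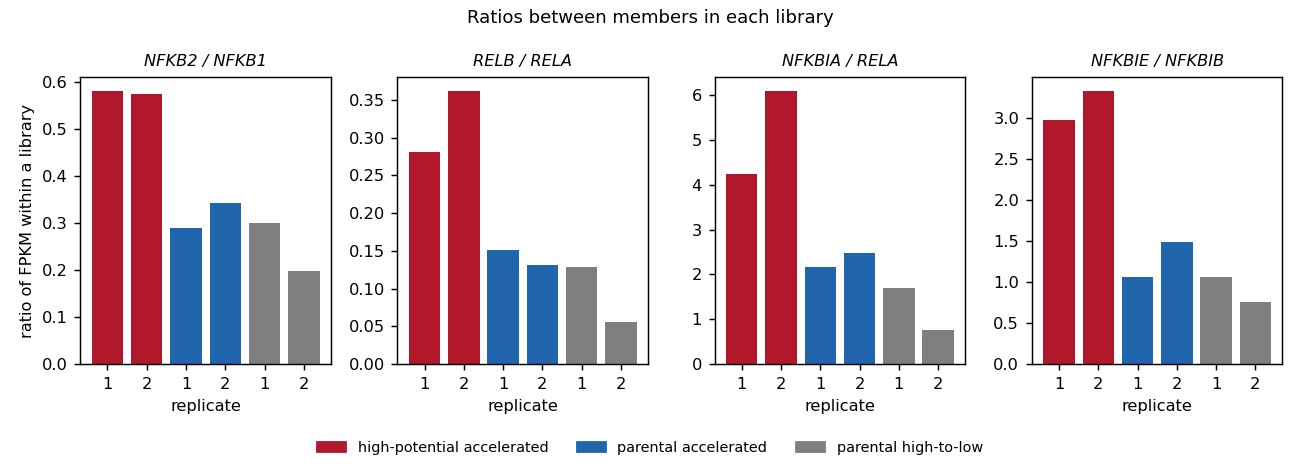
Ratio of FPKM between pairs of members within each library, with each axis starting at 0 and bars coloured by group. Each ratio sets a member with a greater group difference over one with a lesser, so it restates the levels. In each of the 4 ratios both high-potential bars stand above all 4 parental bars, for example 4.24 and 6.09 against 0.759 to 2.48 for NFKBIA over RELA.

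The IkB inhibitors covered the widest range of levels. NFKBIA encodes IkB-alpha, the inhibitor that NF-kB induces most quickly and that is degraded upon signalling. Its level was 155.1 and 185.3 FPKM in the high-potential pair, 61.0 and 62.1 in the parental accelerated pair and 50.5 and 23.2 in the high-to-low pair. The groups did not overlap, the parental accelerated libraries were nearly equal, and high-to-low replicate 2 was the lowest. NFKBIA rose by 1.86 on the log2 scale against the parental mean (SE 0.307, limma adjusted p = 0.045). The lower high-potential library was 2.50 times the highest parental library.

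NFKBIE encodes IkB-epsilon, another inhibitor that NF-kB induces. Its level was 26.5 and 39.7 FPKM in the high-potential pair, 9.43 and 11.6 in the parental accelerated pair and 8.42 and 8.81 in the high-to-low pair. The high-potential libraries were apart from each other as well as above the rest, and the 4 parental libraries lay within a narrow band. NFKBIE rose by 1.67 (SE 0.217, limma adjusted p = 0.0284), the lowest adjusted p of the 10 members, and ranked 82 by p among 12135 genes. NFKBIB, which encodes IkB-beta, behaved otherwise. Its level was 8.92 and 12.0 FPKM in the high-potential pair, 8.85 and 7.81 in the parental accelerated pair and 7.91 and 11.7 in the high-to-low pair, so that high-to-low replicate 2 lay between the high-potential libraries. Its log2 difference was 0.19 (95% interval -0.36 to 0.74, limma adjusted p = 0.7), and without high-potential replicate 2 it was -0.0036. SIRT2, at 8.45 to 19.4 FPKM, overlaps exons of NFKBIB on the opposite strand in GENCODE 29, and SMART-Seq v4 libraries keep no strand, which leaves reads of the pair inseparable there.

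NFKBIA held most of the inhibitor mRNA: 81.4 and 78.2% of the summed FPKM of the 3 IkB genes in the high-potential pair, 76.9 and 76.2% in the parental accelerated pair and 75.6 and 53.2% in the high-to-low pair. The low share in high-to-low replicate 2 goes with its low NFKBIA and its NFKBIB of 11.7 FPKM. Set against the subunits, the summed IkB FPKM was 2.21 and 2.71 times the summed subunit FPKM in the high-potential pair, 1.27 and 1.31 times in the parental accelerated pair and 1.09 and 0.679 times in the high-to-low pair. NFKBIE stood at 2.97 and 3.33 times the level of NFKBIB in the high-potential libraries and at 0.755 to 1.48 times in the parental libraries.

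Both feedback genes were low. BIRC3 encodes cIAP2, a ubiquitin ligase at the TNF receptor that NF-kB induces. Its level was 4.83 and 8.25 FPKM in the high-potential pair, 2.03 and 2.12 in the parental accelerated pair and 1.30 and 1.17 in the high-to-low pair. The 3 groups did not overlap in any pairing, and each parental pair was close together. BIRC3 rose by 1.49 (SE 0.245, limma adjusted p = 0.045), on a scale that understates changes of low genes: it was 0.78 with a pseudocount of 5 and 1.91 with a pseudocount of 0.1. The lower high-potential library was 2.28 times the highest parental library. TNFAIP3 encodes A20, a ubiquitin-editing enzyme that shuts off signalling to the IkB kinase. Its level was 2.75 and 3.73 FPKM in the high-potential pair, 2.17 and 0.828 in the parental accelerated pair and 2.06 and 0.621 in the high-to-low pair. Replicate 1 exceeded replicate 2 in both parental groups, and the lower high-potential library was 1.27 times the highest parental library. The difference of 0.86 (SE 0.36, limma adjusted p = 0.255) did not pass, and it was 0.37 and 1.30 with pseudocounts of 5 and 0.1.

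Of the 12135 tested genes, 0.898% had a log2 difference as high as that of NFKBIA, 1.17% as high as NFKBIE, 1.44% as high as RELB, 1.46% as high as BIRC3, 2.42% as high as NFKB2 and 3.57% as high as TNFAIP3. For REL, RELA, NFKBIB and NFKB1 the shares were 26.3 to 31.9%. The two-sided exact permutation test of 2 libraries against 4 gave p = 0.0667, the smallest that its 15 assignments allow, for NFKB2, RELB, NFKBIA, NFKBIE and BIRC3. It gave 0.133 for TNFAIP3 and 0.2 to 0.467 for the other four. This design cannot reach 0.05 by permutation.

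The calls rest on few libraries. In each fit of high-potential against parental without 1 library, fewer of all tested genes were called too. The loss of calls is thus not particular to the members. Leaving out high-potential replicate 1 or 2, parental accelerated replicate 1 or high-to-low replicate 2 left 0 of 10 members called; without parental accelerated replicate 2 only NFKBIE was called (limma adjusted p = 0.0439), and when high-to-low replicate 1 was left out only NFKBIA was (limma adjusted p = 0.0259). The differences themselves moved less: without any 1 library they were 1.59 to 2.13 for NFKBIA (adjusted p 0.0259 to 0.311), 1.39 to 1.96 for NFKBIE (0.0439 to 0.225) and 1.15 to 1.82 for BIRC3 (0.0671 to 0.274).

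Against parental accelerated cells alone, which share the accelerated label, no member passed. NFKBIE was higher by 1.55 (SE 0.251, limma adjusted p = 0.0773), NFKBIA by 1.45 (0.156), RELB by 1.29 (0.161), BIRC3 by 1.26 (0.127), NFKB2 by 0.95 (0.152) and TNFAIP3 by 0.81 (0.446), with the limma adjusted p in brackets. RELA, NFKBIB, REL and NFKB1 differed by 0.16 to 0.32. In this comparison 0.288% of genes were called higher, and 5 of 10 members were higher at an unadjusted p under 0.05, as 5.69% of genes were. With the replicate block NFKBIE passed (limma adjusted p = 0.0216). That fit called 186 genes higher, where the fit without the block called 35. Without parental accelerated replicate 1, which leaves 1 library in that group, the differences were 1.41 for NFKBIE, 1.44 for NFKBIA, 1.44 for RELB, 1.24 for BIRC3, 0.76 for NFKB2 and 1.21 for TNFAIP3, and 0.07 for NFKB1 to 0.40 for RELA among the other four, none of them called (limma adjusted p 0.235 to 0.953). High-potential libraries lay above both parental accelerated libraries for 8 of 10 members, where 21.1% of genes did; REL and NFKB1 overlapped.

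The numbers in the library names start with 17 or 18, and no label says what they stand for. The high-potential and parental accelerated groups have 1 library of each kind, so the difference can be read within each. It was 1.33 in the pair of 17 names and 1.56 in the pair of 18 names for NFKBIA, 1.40 and 1.69 for NFKBIE, 1.10 and 1.49 for RELB, 1.05 and 0.86 for NFKB2 and 0.95 and 1.57 for BIRC3. These 5 were higher in the high-potential library within both pairs, but this was not particular to them. TNFAIP3 gave 0.24 and 1.37, RELA 0.37 and 0.27, NFKB1 0.15 and 0.18 and NFKBIB 0.01 and 0.56. Only REL changed sign between the pairs, -0.15 and 0.48. The share of all tested genes that were higher within both pairs was not computed. With a term for the name start in the limma fit NFKBIE passed in this comparison (adjusted p = 0.0385). The high-to-low libraries both have names starting with 17.

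Against the high-to-low libraries the high-potential libraries differ in both labels, which cannot be told apart. NFKBIE rose by 1.80 (SE 0.251, limma adjusted p = 0.046), the only member of 10 to pass, where 0.396% of genes were called higher. With the replicate block NFKB2, RELB, NFKBIA and BIRC3 passed too (limma adjusted p = 0.0301, 0.0286, 0.0231 and 0.026, and 0.0143 for NFKBIE). That fit called 301 genes higher, where the fit without the block called 48. Without any 1 of the 6 libraries the NFKBIE call was lost (limma adjusted p 0.0547 to 0.272, difference 1.52 to 2.08). NFKBIA was higher by 2.27 (SE 0.355, limma adjusted p = 0.0583), BIRC3 by 1.71 (0.0634), RELB by 1.69 (0.0802) and NFKB2 by 1.29 (0.0744), with the adjusted p in brackets. TNFAIP3 was higher by 0.92 (0.312), and RELA, NFKB1, REL and NFKBIB differed by 0.09 to 0.31. High-potential libraries lay above both high-to-low libraries for 7 of 10 members, the 6 named above and REL, where 24.7% of genes did. Both pairwise comparisons use the same high-potential libraries.

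**Figure D3:**
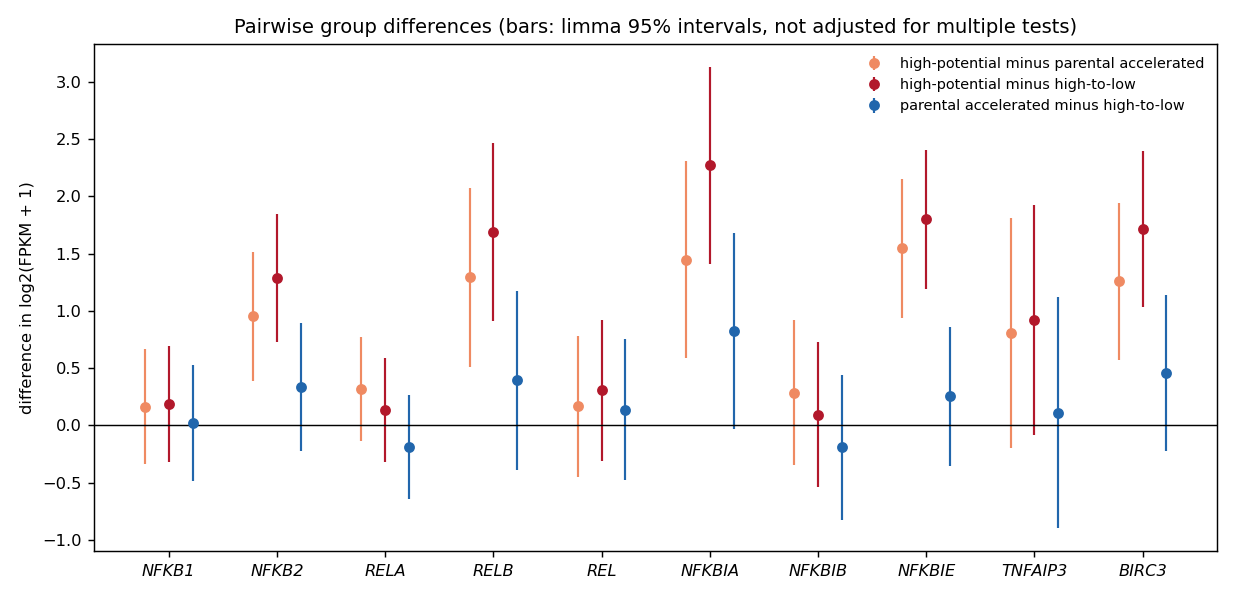
Difference in log2(FPKM + 1) between each pair of groups for the 10 genes, with limma 95% intervals that are not adjusted for multiple tests. NFKB2, RELB, NFKBIA, NFKBIE and BIRC3 have intervals above 0 against both parental groups, and the 10 intervals between the parental groups all include 0.

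Between the parental groups, which differ in the transition label only, 0 of 10 members were called by limma (each adjusted p was 1), 0 had an unadjusted p under 0.05, where 0.429% of genes were higher and 0.544% lower at that threshold, and 0.0165% of genes were called higher. NFKBIA had the greatest difference, 0.82 higher in the accelerated cells (SE 0.355, 95% interval -0.04 to 1.68), and it was 0.28 without high-to-low replicate 2. BIRC3 (0.46), RELB (0.39), NFKB2 (0.33) and NFKBIE (0.25) came next, and RELA (-0.18) and NFKBIB (-0.19) were lower. Accelerated libraries lay above high-to-low libraries for 4 members (11.4% of genes) and below for 1, RELA (12.7% of genes). Parental accelerated replicates 1 and 2 had 26.7 and 316.9 FPKM of ALDH1A1. Replicate 2 was higher for NFKBIA (61.0 and 62.1), BIRC3 (2.03 and 2.12), NFKB2 (5.99 and 8.11), NFKB1 and NFKBIE. It was lower for TNFAIP3 (2.17 and 0.828), RELB (4.25 and 3.29), REL (3.16 and 2.18), RELA and NFKBIB. High-to-low replicates 1 and 2 had 28.4 and 9.45 FPKM of ALDH1A1. Replicate 2 was also lower for NFKBIA (50.5 and 23.2), RELB (3.85 and 1.69), TNFAIP3 (2.06 and 0.621), NFKB2 and BIRC3. It was higher for NFKBIB (7.91 and 11.7), NFKB1 (19.4 and 24.6), REL (2.06 and 2.57), RELA and NFKBIE.

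The neighbours of NFKBIA on chromosome 14 moved with it in part. Of the 20 tested genes around it in RefSeq order, 10 on each side, 19 had a higher level in the high-potential cells, with a median log2 difference of 0.54, and 0 of them were called. The range was -0.02 to 0.77, against 1.86 for NFKBIA, which exceeded the neighbours' median by 1.32. PSMA6, a proteasome subunit gene next to it, had levels of 226.7 and 257.8 FPKM in the high-potential pair, 128.0 and 222.9 in the parental accelerated pair and 152.1 and 188.8 in the high-to-low pair. Over the other 348 tested genes of the chromosome the median difference was 0.28 and 265 were higher. By library, the neighbours' median deviation from the mean of the 6 libraries was 0.37 and 0.33 in the high-potential pair, -0.22 and 0.20 in the parental accelerated pair and -0.30 and -0.28 in the high-to-low pair. Parental accelerated replicate 2 thus stood with the high-potential libraries in the neighbours while its NFKBIA matched replicate 1. The part of the neighbourhood in the NFKBIA difference was not tested. Around the other 9 members the neighbours' median difference was -0.10 to 0.19. Of 20 neighbours, 16 were higher around NFKBIE, 15 around RELB and 7 to 12 around the rest. The genes directly beside TNFAIP3, IFNGR1 and PERP, differed by 0.71 and 0.63, against 0.86 for TNFAIP3. Directly beside the rest of these 9 members the differences were -0.95 to 0.42. Their part was not tested either. The window of 10 genes was chosen after the data were seen.

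**Figure D4:**
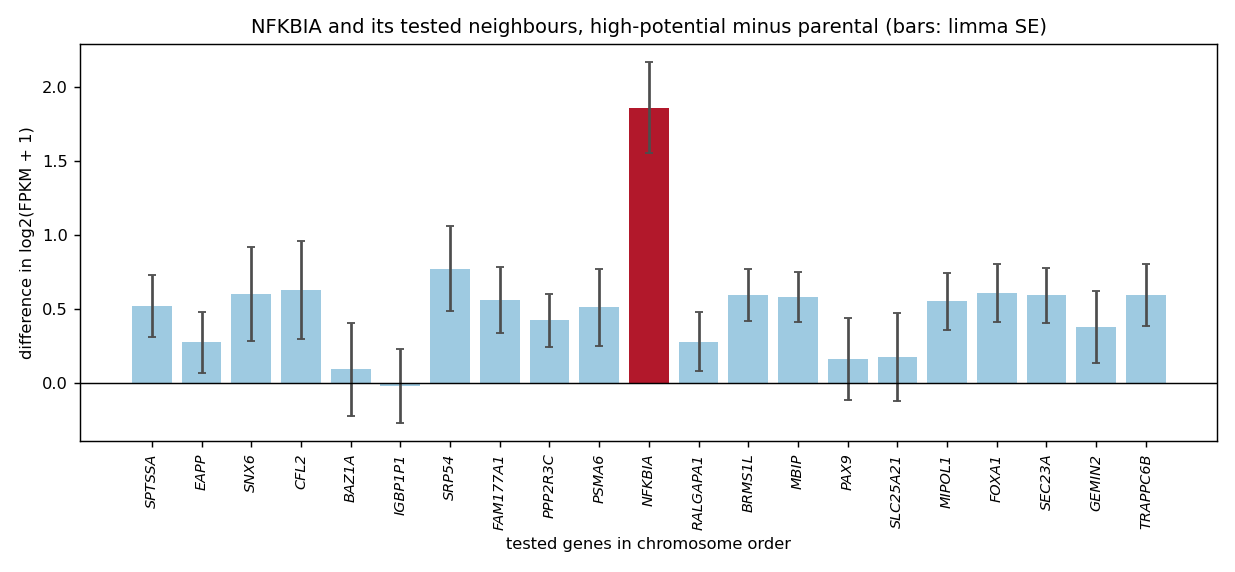
Difference in log2(FPKM + 1) between high-potential and parental libraries for NFKBIA and the 10 tested genes on each side of it in chromosome order, with limma standard errors. NFKBIA stands at 1.86, and the neighbours lie between -0.02 and 0.77.

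The rest of the pathway is given from 5 lists, some of which share genes, in high-potential against parental cells. Of 20 tested kinases and adaptors upstream of the inhibitors, 17 were higher and 3 lower (median 0.22). MAP3K7, the TAK1 kinase that activates the IkB kinase, was the only list member called (limma adjusted p = 0.045). Its level was 99.3 and 106.6 FPKM in the high-potential pair, 49.8 and 58.2 in the parental accelerated pair and 50.3 and 54.8 in the high-to-low pair, so it rose by 0.94 (SE 0.156). The call was lost without any 1 library (adjusted p 0.057 to 0.305). TRADD, the adaptor at the TNF receptor, had the most negative difference, -0.89 (limma adjusted p = 0.0788, and 0.0359 with the replicate block), at 6.99 and 4.86 against 10.9 to 12.5 FPKM in the 4 parental libraries. High-potential libraries lay below all parental libraries for 2 of the 20, TRADD and CHUK, where 17.5% of all genes do, and above for 9, where 15.3% do.

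In the list of the non-canonical arm 5 of 9 tested genes were higher and 4 lower (median 0.28), and 0 were called by limma. TNFSF12, 1 of the 4, reached 1 FPKM in parental libraries only. Over the 8 genes without it 5 were higher and 3 lower (median 0.31). At an unadjusted p under 0.05, 3 were higher and 1, CHUK, was lower, where 8.11% of all genes were higher and 11.8% lower. MAP3K14, which encodes NIK, had the greatest difference, 0.88 (limma adjusted p = 0.0756, and 0.0378 with the replicate block), at 17.8 and 17.6 FPKM in the high-potential libraries against 8.45 and 11.7 and 9.12 and 7.78 in the parental groups. TNFRSF12A, the receptor of TWEAK, had the most negative, -0.75 (limma adjusted p = 0.291), at 66.1 and 133.7 FPKM against 108.7 to 253.5. Of 15 tested other inhibitors and brakes 11 were higher and 4 lower (median 0.22), and 0 were called by limma, with 1 of 15 (BCL3, higher) at an unadjusted p under 0.05, beside the 8.11% of all genes. TRAF1, 1 of the 4, reached 1 FPKM in parental libraries only. Over the 14 genes without it 11 were higher and 3 lower (median 0.24). NFKBID, an atypical nuclear IkB, had the greatest difference, 0.91 (limma adjusted p = 0.356), but its high-potential libraries were far apart, at 3.41 and 12.1 FPKM. CYLD, a deubiquitinase that restrains the pathway, had the most negative, -0.13 (limma adjusted p = 0.789).

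Of 17 tested induced genes that are not cytokines 15 were higher and 2 lower (median 0.42). C3 and TRAF1 reached 1 FPKM on only 1 side. Over the 15 genes without them the median was also 0.42, and 1, SOD2, passed, where 0.931% of all tested genes were called higher. C3 passed as well. SOD2, the mitochondrial superoxide dismutase, measured 115.4 and 98.2 FPKM in the high-potential pair against 50.9 to 57.6 in the parental libraries, a rise of 0.96 (SE 0.158, limma adjusted p = 0.045) that was lost without any 1 library (adjusted p 0.0699 to 0.267). C3, complement component 3, was 42.1 and 50.6 FPKM in high-potential cells and 0.298 to 0.998 in the 4 parental libraries (difference 4.97, limma adjusted p = 0.000802). It passed the filter through the high-potential libraries alone, so it had to differ, and its difference was 3.21 and 6.33 with pseudocounts of 5 and 0.1. TNFAIP8, a regulator of cell death, had the most negative difference (-0.85, limma adjusted p = 0.0906, and 0.047 with the replicate block). Of 19 chemokines and cytokines in the files 9 were tested, and CCL2, IL8, TNF and CSF1 passed. CCL2, IL8 and TNF (3 of the 9) passed the filter through the high-potential libraries alone and had to differ, so no count or median over the 9 is given. The other 6 had differences of 0.15 to 2.49, with a median of 1.44, and 1 of them, CSF1, was called. CSF1, the growth factor of macrophages, measured 29.5 and 47.6 FPKM in the high-potential pair against 6.48 to 9.97 in the parental libraries, a rise of 2.07 (limma adjusted p = 0.0245). CCL2 was 23.9 and 39.3 FPKM in high-potential cells, 0.157 in high-to-low replicate 1 and listed at 0 in the other 3 parental libraries (limma adjusted p = 0.00134). IL8 was 16.3 and 27.8 FPKM against 0.0668 to 0.979 (0.0103), and TNF, itself an activator of the pathway, 5.22 and 12.5 against 0 to 0.133 (0.0176). The size of these differences is set by the pseudocount: with 5 and with 0.1 it was 2.83 and 7.93 for CCL2, 2.28 and 5.66 for IL8 and 1.40 and 5.68 for TNF, and with the pseudocount of 1 it was 4.93, 3.98 and 3.10. LIF had the least difference of the list, 0.15 (limma adjusted p = 0.796). C3, CCL2, IL8 and TNF had to differ, so the calls that C3 and CCL2 kept without any 1 library lend no support. IL8 and TNF lost theirs without some of the libraries. Without any 1 library the CSF1 difference was 1.73 to 2.41, and its call held only without parental accelerated replicate 2. These lists were chosen with such results in view and are given as counts beside the 50.1% of all genes that were higher.

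**Figure D5:**
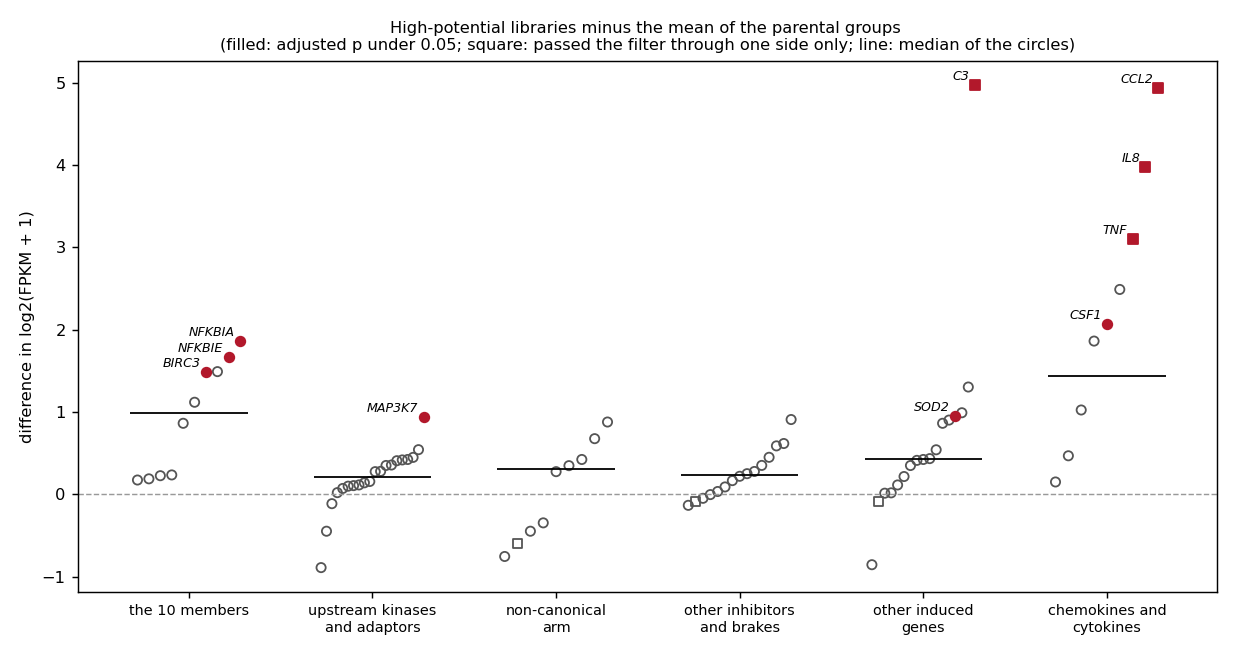
Difference in log2(FPKM + 1) between high-potential and parental libraries for the 10 genes and for each pathway list, with 1 point per tested gene, filled where the limma adjusted p is under 0.05, squares for genes that reached 1 FPKM on only one side of the comparison, and a line at the median of the circles. Those medians are 0.99 for the 10 genes, 0.22 to 0.42 for the lists of regulators and other induced genes and 1.44 for the 6 chemokines and cytokines drawn as circles.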

How the data were processed

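For each library the authors deposited a table of FPKM values, with 1 value for each of 23284 gene symbols. The submitters' processing notes name TopHat2 2.0.13, Cuffnorm 2.2.1 and hg19; the sources used here do not give the annotation or how libraries were scaled. FPKM values are not counts, so the 12135 genes that reached 1 FPKM in 2 or more libraries were tested as log2(FPKM + 1) in 1 limma model (limma 3.58.1, R 4.3.3) with a variance trend and 3 residual degrees of freedom. Contrasts were high-potential against the mean of both parental groups and the 3 pairs of groups, with p-values adjusted by Benjamini-Hochberg over all tested genes, two-sided, and called under 0.05. Replicate numbers were checked for pairing by the correlation across genes of replicate 1's deviations from its group mean, which was 0.187, 0.158 and 0.281 between groups. The limma step was tested on simulated data. Each of the 10 members is described in every comparison; other pathway genes are named where they passed or had the greatest or the most negative difference of their list, and CHUK and BCL3 were named after their values were seen. Relative depth came from the most common ratio of values under 0.3 FPKM between libraries, and fragments from the longest coding transcript in GENCODE 29, as an approximation. Alternatives changed the pseudocount, filter, scaling, small RNA genes, variance model, fitted libraries, a block or name term and each library in turn. The members, lists and tests were chosen with earlier results of these data known.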

Additional observations from a re-analysis of the deposited data

How the results depend on the processing

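The reported fit called 279 genes in high-potential against parental, 60 against parental accelerated, 97 against high-to-low and 2 between the parental groups. A pseudocount of 0.1 gave 164, 31, 54 and 4. A term for the replicate number (replicate block) gave 1346, 546 and 944 in the comparisons with high-potential cells. It called NFKB2, RELB, NFKBIA, NFKBIE and BIRC3 (5 of 10) against parental and high-to-low, and NFKBIE against parental accelerated. It also changed the calls of MAP3K14, TRADD and TNFAIP8 in high-potential against parental. No other call of a list gene followed through the alternatives changed with it, and CHUK and BCL3 were not followed. A term for the start of the name number gave 105, 54 and 7 in the last 3. Without a filter 38 and 39 genes passed against parental accelerated and high-to-low. With only the compared groups in the fit the counts were 39 against parental accelerated and 7 between the parental groups, and without small RNA genes the latter was 0. Without any 1 library the counts ranged over 14 to 200, 14 to 38, 13 to 115 and 4 to 7; fewer libraries leave 2 residual degrees of freedom and a lone library is assumed to vary like the others.

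Under all alternatives the differences of NFKB2, RELB, NFKBIA, NFKBIE, TNFAIP3 and BIRC3 in the 3 comparisons with high-potential cells stayed positive, and those of NFKB1 and RELA did too. In high-potential against parental, NFKBIE was called in 12, NFKBIA in 10 and BIRC3 in 8 of 17 alternatives. NFKBIA and BIRC3 were lost with a pseudocount of 0.1 (limma adjusted p = 0.0533 and 0.0532) and with no filter (0.0786 and 0.0772), and BIRC3 with a filter at 3 FPKM (0.0553). No called difference turned its sign. Without any 1 library NFKBIB ranged from -0.0036 to 0.38 against parental (the lowest without high-potential replicate 2) and from -0.16 to 0.35 against high-to-low (-0.098 without high-potential replicate 2), and REL from -0.026 to 0.36 against parental accelerated. Between the parental groups the ranges were -0.14 to 0.19 for NFKB1 (-0.070 without parental accelerated replicate 2, and -0.078 with the name term), -0.031 to 0.82 for RELB, -0.055 to 0.33 for REL, -0.44 to 0.064 for NFKBIB and -0.35 to 0.57 for TNFAIP3 (-0.29 without parental accelerated replicate 1). CYLD ranged from -0.33 to 0.066 and LIF from -0.039 to 0.34 in high-potential against parental. The cause of these shifts was not tested. TNFAIP3 could not be fitted with the filter at 3 FPKM, which removed it.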
